A study of Caenorhabditis elegans with 2 samples.

Results

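The insulin and TOR nutrient signalling genes examined here were daf-2, daf-18, akt-1, akt-2, daf-16, let-363, daf-15, rheb-1, raga-1 and hlh-30, 10 of the 19973 protein-coding genes annotated on the nuclear chromosomes of Caenorhabditis elegans. They were listed by name as genes that govern L1 arrest and growth after feeding. For each gene, every peak with a summit from 1000 bp upstream of its outermost annotated start to its end was collected. The peaks came from ChIP-seq of ISW-1, the ATPase subunit of ISWI-type complexes, which slide and space nucleosomes. All animals were of strain OP181, which carries the integrated transgene wgIs181 (isw-1 with a TY1, EGFP and 3xFLAG tag, beside unc-119(+)) in the unc-119(ed3) background. Whole L1 larvae, aged 6 hours and starved after bleaching, gave 2 biological replicates of this 1 condition. Chromatin was sonicated and precipitated with an antibody to GFP, so binding in different tissues of the larva was summed, and no untagged, input or fed sample was analysed here.

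In C. elegans the insulin-like receptor DAF-2 signals through a lipid kinase to the kinases AKT-1 and AKT-2, which keep the FoxO transcription factor DAF-16 out of the nucleus. DAF-18, a lipid phosphatase, works against this branch, and both DAF-16 and DAF-18 are known for their part in developmental arrest of larvae that hatch without food. The TOR kinase LET-363 and its partner DAF-15 (Raptor) form TOR complex 1, which the small GTPases RHEB-1 and RAGA-1 activate when growth factors and amino acids are plentiful. HLH-30 is the worm counterpart of TFEB, a transcription factor of autophagy and lysosome genes that acts downstream of TOR.

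Of the 10 genes, 6 held a peak of the conservative list from 1000 bp upstream to the gene end, beside 11.3% of all protein-coding genes. All 4 of the 10 genes that are at least 15 kb long held one, beside 30.9% of protein-coding genes of that length, a background added after seeing the data. The conservative list is a set of peaks drawn from both replicates and thresholded by the irreproducible discovery rate (IDR). The sequences under 4 conservative peaks at these genes are shown here. They include the promoter peaks of rheb-1, hlh-30 and akt-2, and an intronic peak of daf-2 that shares an 8-base sequence with the promoter of hlh-30. Only promoter peaks were planned to be shown, and the daf-2 peak was added to them. The shared sequence is at 16.4% of all conservative summits. The daf-2 peak ranked only 2079 of 2143 by signal and was in neither replicate's own thresholded list. All are on ce11, written 5′ to 3′ on the minus strand for rheb-1, hlh-30 and daf-2 and on the plus strand for akt-2, which is the strand of each gene. The rheb-1 run is chrIII:9456206-9456406, the hlh-30 run is chrIV:4034952-4035119, the akt-2 run is chrX:14146771-14146971 and the daf-2 run is chrIII:3036127-3036327. Each run reaches 100 bp to either side of the summit, except that of hlh-30, which stops at the annotated first exon. Capitals mark searched sequences in either orientation, namely TTATCA (the reverse complement of TGATAA) at rheb-1, GAGACGCA (that of TGCGTCTC) at hlh-30, TCTCTCTC (that of GAGAGAGA) at akt-2 and TGCGTCTC at daf-2.
rheb-1: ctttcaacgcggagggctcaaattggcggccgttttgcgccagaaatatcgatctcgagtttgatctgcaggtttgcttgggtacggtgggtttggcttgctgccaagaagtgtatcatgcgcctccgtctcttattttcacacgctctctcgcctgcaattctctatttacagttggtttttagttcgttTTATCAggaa
hlh-30: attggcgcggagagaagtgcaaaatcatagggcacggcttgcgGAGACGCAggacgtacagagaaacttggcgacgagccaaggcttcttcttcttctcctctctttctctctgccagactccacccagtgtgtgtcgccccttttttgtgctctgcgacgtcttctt
akt-2: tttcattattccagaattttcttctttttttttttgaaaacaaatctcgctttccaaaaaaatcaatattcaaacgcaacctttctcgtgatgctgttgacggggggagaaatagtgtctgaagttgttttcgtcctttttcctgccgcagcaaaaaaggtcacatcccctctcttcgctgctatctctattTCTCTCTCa
daf-2: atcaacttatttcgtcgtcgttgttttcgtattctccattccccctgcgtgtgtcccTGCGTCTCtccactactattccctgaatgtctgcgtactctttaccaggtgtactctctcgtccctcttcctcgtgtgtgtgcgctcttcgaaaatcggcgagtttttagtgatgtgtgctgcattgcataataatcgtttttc

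ISW-1::EGFP was found at the promoters of akt-2 and daf-16 in the insulin branch, and of rheb-1 and hlh-30 in the TOR branch, with the highest signal at rheb-1. The promoter window of a gene began 1000 bp before its outermost annotated start and ended 500 bp after it, and a gene with a summit in this window is called bound. In the conservative list 4 of the 10 genes (40.0%) were bound, beside 10% of all protein-coding genes (1997 of 19973). The other thresholded list added daf-18 and daf-15 and gave 6 of 10, beside 10.2% of all genes. The list of replicate 1 alone held the same 4 genes as the conservative list, beside 9.82% of all genes. That of replicate 2 alone held 3, namely daf-16, daf-15 and rheb-1, beside 8.6%. The ranked list behind the conservative one, with no threshold, gave 7 of 10 beside 24.5%, the added genes being daf-18, daf-15 and let-363. Windows at the start of any annotated transcript gave the same 4 genes, beside 10.5%. Because the 10 genes were chosen with earlier results known, these counts were not tested.

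**Figure D1:**
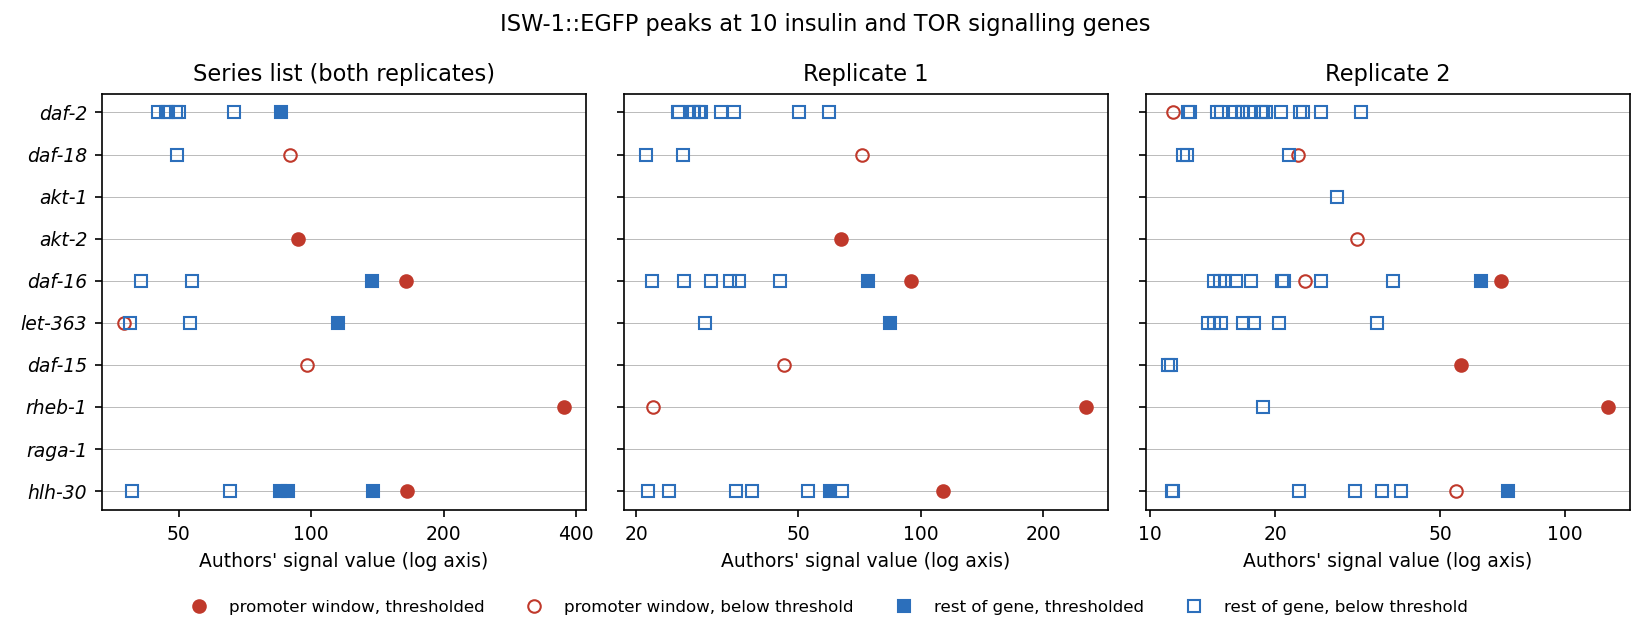
Peaks at each gene, by the authors' signal value on a log axis, in the ranked list of the series (left) and of replicates 1 and 2 (middle, right), with 1 symbol per peak. Circles lie in the promoter window and squares in the rest of the gene, and filled symbols passed the threshold of the conservative list or of that replicate's own list. The rheb-1 peak is the highest in all 3 panels (375.4, 254.4 and 126.6), and raga-1 has no peak in any.

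The authors' signal value of a peak is deposited on a scale that is not stated, and it was read only within a list. In the conservative list of 2143 peaks it ran from 37.55 to 2624 with a median of 189.3. The replicates' own thresholded lists held 2090 and 1756 peaks with medians of 125.0 and 81.25. Their signals are thus given side by side and were not averaged into a mean and SD. Peak lists carry no read counts, so sequencing depth is unknown and no counting interval could be given.

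The gene of the insulin receptor, daf-2 (WBGene00000898, chrIII:2994514-3040846, minus strand), had no summit in its promoter window in any thresholded list. Its 1 conservative peak, chrIII:3036039-3036414, lay 4619 bp downstream of the outermost start in an intron of Y55D5A.5c.1, the transcript with that start, and none of the 7 annotated starts had it in its window. Its signal was 85.31, rank 2079 of 2143. The summit was also within an exon of linc-143, a long intergenic non-coding RNA gene on the same strand (chrIII:3035541-3037543), 1316 bp from that gene's start. Replicate 1 gave this peak a signal of 59.5 and replicate 2 a signal of 32.17, with summits 1 bp apart. Neither replicate's own thresholded list contained it, and its global IDR in their ranked lists was 0.69 and 0.487. Next to the outermost start itself, the only peak was one in the ranked list of replicate 2, 301 bp downstream, with a signal of 11.33 near the bottom of that list (rank 30248 of 31134).

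daf-18 (WBGene00000913, chrIV:420011-425177, minus strand), which encodes the phosphatase that opposes the receptor's signal, was bound in the other thresholded list only. The peak, chrIV:425574-425949, had a signal of 89.39 at rank 2090 of 2210, with a summit 585 bp upstream of the single annotated start. It fell short in the ranked list behind the conservative set, where its global IDR was 0.472 against a threshold of 0.01. Replicate 1 gave a signal of 71.74 (rank 1916 of its 18612 ranked peaks) and replicate 2 one of 22.68 (rank 6589 of 31134). Neither passed alone, and the summits were 101 bp apart. The same summit lay 406 bp upstream of garr-1, the divergent neighbour, so it cannot be given to daf-18 alone.

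Of the paralogous kinase genes akt-1 and akt-2, only akt-2 had a thresholded peak. akt-2 (WBGene00000103, chrX:14147700-14152070, plus strand) had a conservative promoter peak, chrX:14146683-14147058, with a signal of 93.32 at rank 2003. Its summit was 829 bp upstream of the start that its 2 transcripts share. Among the 1997 bound genes, 96.0% had a higher promoter signal and only 5.16% had a summit farther upstream. Replicate 1 passed this peak on its own (signal 63.86, global IDR 0.00468), whereas replicate 2 did not (31.42, rank 2788 of 31134, global IDR 0.0429). The next protein-coding gene upstream, ceh-89, was 2811 bp away. At akt-1 (WBGene00000102, chrV:10248905-10252845, plus strand), no thresholded list held a peak. Peaks that did not pass appeared within its coding sequence, 2813 bp downstream of the start in the other ranked list (signal 40.97, rank 8992 of 11169, global IDR 0.776) and 2900 bp downstream in the ranked list of replicate 2 (28.25, rank 3403 of 31134, global IDR 0.323). The difference between the paralogs was not tested, and in the ranked list of replicate 2 their signals were close.

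daf-16 (WBGene00000912, chrI:10750498-10776703, plus strand), the gene of the FoxO factor, carried 2 conservative peaks, and both were in each replicate's own thresholded list. The promoter peak, chrI:10749898-10750273, had a signal of 164.3 at rank 1264, and its summit was 412 bp upstream of R13H8.1h.1. The summit fell in the windows of 5 of the 11 annotated transcripts (those of the d, f, h, i and k isoforms). It was also within 2 short non-coding RNA genes, H36N01.1 and H36N01.4. Replicate 1 gave a signal of 94.58 and replicate 2 of 70.1, with summits 1 bp apart. The other peak, chrI:10769717-10770092, was intronic, with a signal of 137.5 at rank 1529. Its summit was 1603 bp upstream of R13H8.1a.1, the start of the a isoform, and so outside that start's window. The summit was in the promoter window of R13H8.5, a non-coding RNA gene. The signals of this peak were 74.4 and 62.73 in replicates 1 and 2, with summits 60 bp apart. The start shared by the b and c isoforms had only a peak below threshold, 114 bp upstream in the other ranked list (signal 58.38, global IDR 0.497). Replicate 1 placed one 112 bp upstream (45.15, global IDR 0.406). The starts of the a, b, c, e, l and m isoforms thus had no thresholded summit in their windows.

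For TOR complex 1, neither the kinase gene nor the Raptor gene had a conservative promoter peak. let-363 (WBGene00002583, chrI:5245743-5263424, plus strand) had its 1 conservative peak, chrI:5261616-5261991, in an intron 16061 bp downstream of the outermost start, with a signal of 115.2 at rank 1751. It was in the thresholded list of replicate 1 (84.09, global IDR 0.00179) and missed that of replicate 2 (35.16, global IDR 0.0493), and the summits were 18 bp apart. A summit 144 bp downstream of the start appeared only without a threshold, with a signal of 37.53 that was close to the lowest of the ranked list (36.84). That summit was only in the ranked list behind the conservative one (rank 11222 of 11648, global IDR 0.787). Neither the other ranked list nor those of the replicates held it. Just upstream lies mrpl-47, a mitochondrial ribosomal protein gene on the same strand whose end is 341 bp from let-363. A peak of signal 222.7 (rank 897) had its summit 6 bp upstream of mrpl-47, which is 1466 bp upstream of let-363.

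daf-15 (WBGene00000911, chrIV:9386208-9394979, plus strand), which encodes Raptor, was bound in the other thresholded list and in the list of replicate 2. The peak, chrIV:9386016-9386391, had a signal of 97.95 at rank 1996 of 2210. Its summit was 4 bp upstream of C10C5.6c.1, the nearest to an annotated start among the thresholded peaks of the series at these genes, and in the windows of all 5 annotated transcripts. In the ranked list behind the conservative set its global IDR was 0.0766, above the threshold of 0.01. Replicate 2 gave a signal of 56.15 (rank 1410 of 31134 ranked peaks, global IDR 0.00103) and replicate 1 one of 46.19 (rank 3036 of 18612, global IDR 0.148), with summits 30 bp apart.

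Of the GTPase genes that activate TOR complex 1, rheb-1 had the highest peak of all 10 genes and raga-1 had none. At rheb-1 (WBGene00010038, chrIII:9454163-9456030, minus strand), the peak chrIII:9456203-9456406 had a signal of 375.4 at rank 431 of 2143, and 26.4% of bound genes had a higher promoter signal. Its width of 204 bp also set it apart, since the other 9 conservative peaks at these genes all had the width of 376 bp that 55.2% of the list shares. The summit was 276 bp upstream of the single start. It was in every thresholded list, with signals of 254.4 in replicate 1 (rank 387 of 2090 thresholded peaks) and 126.6 in replicate 2 (rank 484 of 1756), a global IDR of 1e-05 in both ranked lists and summits 14 bp apart. The 578 bp between rheb-1 and the divergent gene spk-1 hold this summit near their middle, 302 bp upstream of spk-1, so the peak counts for both genes. raga-1 (WBGene00006414, chrII:11301359-11302776, plus strand) had no peak in any of the 8 lists from 1000 bp upstream to its end. It begins 99 bp after the end of saps-1, on the same strand. In the ranked list, the peak of the saps-1 promoter, 217 bp upstream of that gene, had a signal of 46.39 and a global IDR of 0.62 and was not thresholded.

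hlh-30 (WBGene00020930, chrIV:4014793-4034951, minus strand), the TFEB gene, held 4 conservative peaks over 20.2 kb, more than any other of the 10 genes. None of these was in both replicates' own thresholded lists, and how many peaks other genes of that length hold was not counted. The promoter peak, chrIV:4034831-4035206, had a signal of 165.3 at rank 1257. Its summit was 68 bp upstream of W02C12.3d.2 and in the windows of 3 of the 13 transcripts. Replicate 1 passed it (113.2, global IDR 8.95e-05), and replicate 2 gave 54.5 with a global IDR of 0.0385, above its threshold.

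The other 3 peaks of hlh-30 were intronic. At chrIV:4018983-4019358 (signal 85.1, rank 2081) the summit was 127 bp upstream of W02C12.3f.1 and in the windows of 6 of the 13 transcripts, which start within the same stretch. This was the only conservative peak of the 10 genes that lay outside the outermost promoter window and within that of an internal start. Replicate 1 passed it at 60.01, and replicate 2 gave 31.1 with a global IDR of 0.343. At chrIV:4019883-4020258 (signal 138.1, rank 1522) the summit was 1027 bp upstream of the same W02C12.3f.1, just outside its window. Both this summit and that of the peak with signal 85.1 were in the promoter window of W02C12.4, a non-coding RNA gene. The peak with signal 138.1 was the only conservative peak of these genes that replicate 2 passed (72.96, global IDR 0.000164) and replicate 1 did not (64.14, global IDR 0.558). The fourth, chrIV:4024173-4024548 (signal 88.8, rank 2052), was 2702 bp downstream of W02C12.3d.1. It was in neither replicate's own list (52.96 and 40.18), with summits 152 bp apart. The start shared by the b and c isoforms had a summit 256 bp upstream that did not pass (65.53, global IDR 0.172).

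**Figure D2:**
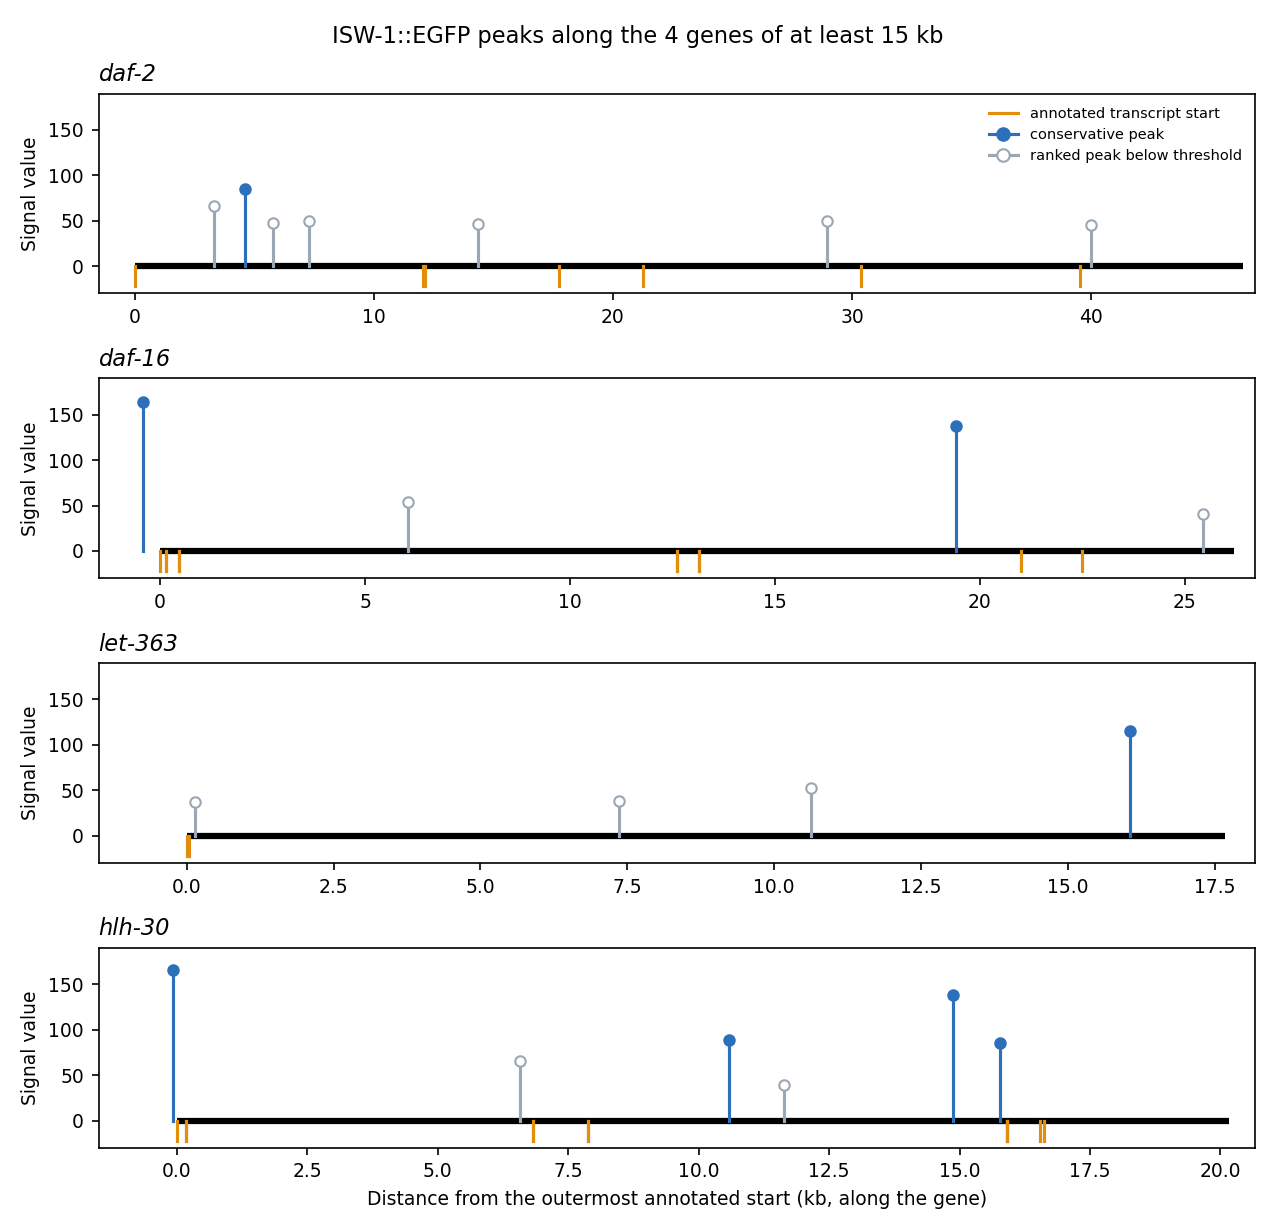
Peaks of the ranked list of the series along the 4 genes of at least 15 kb, with distance from the outermost start in kb on the horizontal axis and the authors' signal value on the vertical axis. Filled circles are conservative peaks, open circles did not pass the threshold, and orange ticks are annotated transcript starts. daf-16 and hlh-30 have a conservative peak just before their outermost start, and the conservative peaks of daf-2 and let-363 lie only within the gene.

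Over the genes with their upstream 1000 bp, 6 of 10 held a conservative summit, beside 11.3% of all protein-coding genes. Long genes offer more sequence in which a summit can fall. All 4 of the genes of at least 15 kb (daf-2, daf-16, let-363 and hlh-30) held one, beside 30.9% of the 404 protein-coding genes of that length. The daf-2 peak was in neither replicate's own thresholded list, and the let-363 peak only in that of replicate 1. In all, 10 conservative peaks lay at the 10 genes, 4 of them in the promoter window and 6 outside it. These 6 were all intronic and all at the 4 genes of at least 15 kb. The share of all conservative peaks that lie outside promoter windows or in introns was not counted, so this split has no background. Of the 10 peaks, 9 were at or below the list's median signal of 189.3, and the exception was rheb-1. Over bound genes the median promoter signal was 164.8 for the 4 genes and 231.6 for all 1997, and the median distance of the summit from the start was 344 and 237 bp.

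The replicates had a peak at each of these sites, but often passed it in only one of their own lists. Each of the 12 peaks that either series list contains at the 10 genes overlapped a ranked peak of both replicates, with summits 1 to 152 bp apart. The series lists were drawn from these same replicates, and 2130 of all 2143 conservative peaks had such an overlap. It is thus not particular to these genes. Of the 10 conservative peaks, 3 were in both replicates' own thresholded lists, namely the rheb-1 peak and both daf-16 peaks. Another 4 were in that of replicate 1 alone (akt-2, let-363 and hlh-30 at its promoter and 127 bp before the f isoform) and 1 in that of replicate 2 alone. The remaining 2, at daf-2 and in the hlh-30 intron, were in neither. The share in both lists was 30% here and 71.8% for all 2143 conservative peaks. Among the 1072 conservative peaks at or below the median signal, to which 9 of the 10 belong, it was 45.0%. The rheb-1 peak is above the median, so of those 9 only the 2 daf-16 peaks were in both lists. The median distance between the replicates' summits was 31 bp for the 10 peaks, 26 bp for those 1072 and 17 bp for all. The 31 bp includes the rheb-1 peak, whose summits were 14 bp apart.

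**Figure D3:**
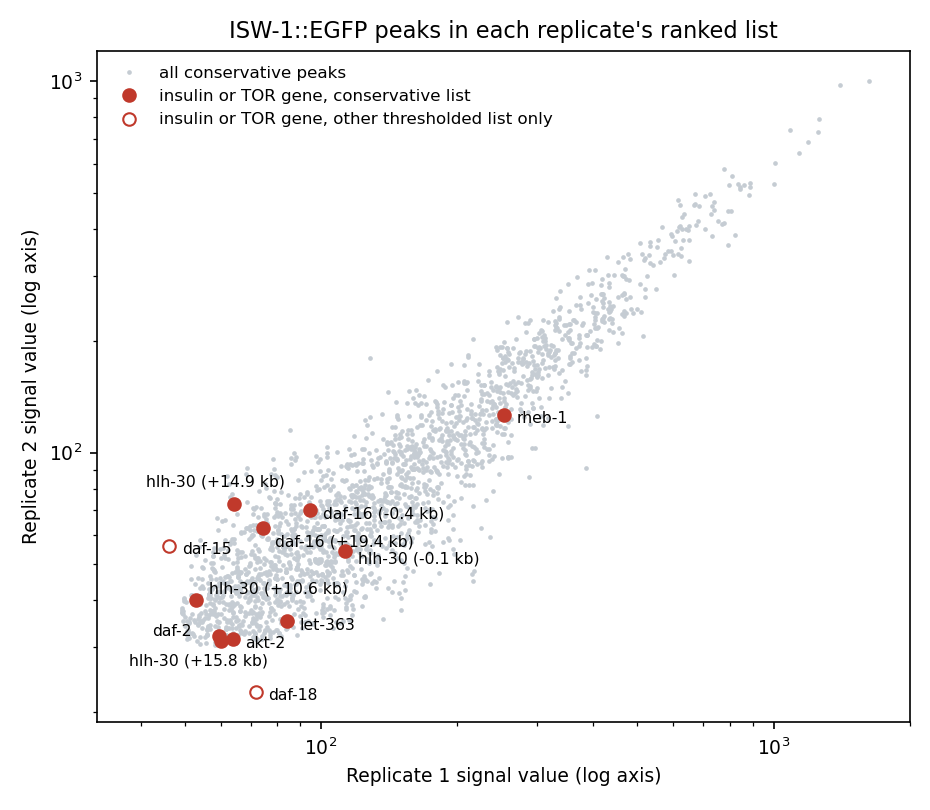
Signal values of the same peak in the ranked lists of replicate 1 (horizontal) and replicate 2 (vertical), both on log axes, for the 2130 conservative peaks with a ranked peak in each replicate (grey) and for the peaks at the 10 genes (red, open where only the other thresholded list has them). Distances in kb are from the outermost start. Apart from rheb-1 the red points lie in the lower left part of the cloud, and daf-18 lies below it with a replicate 2 signal of 22.68.

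Searched sequences were described within 100 bp of each summit, on both strands. TGCGTCTC, which 16.4% of conservative summits and 2.59% of windows of the same 201 bp upstream of gene starts hold, was present at the daf-2 intronic peak and at the hlh-30 promoter, 39 and 53 bp from the summit. GAGAGAGA (12.6% and 2.75%) was present at 3 of the 10 conservative summits. It occurred once at akt-2, 3 times with overlap at the hlh-30 peak before the f isoform's window, and 17 times with overlap at the daf-16 intronic peak. GTAAACA, the core of the sequence that FoxO factors such as DAF-16 bind, was 12 bp from the summit of daf-16's own promoter peak and 21 bp from that of the hlh-30 intronic peak with signal 88.8. It is no more frequent at conservative summits (2.89%) than upstream of genes (3.49%). That hlh-30 peak also held GCGCGAAA, an E2F-like sequence (3.55% and 0.906%). CACGTG, the E-box that HLH-30 and other helix-loop-helix factors bind (5.18% and 4.23%), was at none of the 12 summits. The sequence TGATAA, of the kind that GATA factors bind (6.72% and 22.8%), was at rheb-1, and GGGCGG (10.4% and 6.01%) at the hlh-30 peak 127 bp before the f isoform. None of the 7 sequences was at the summits of daf-18, daf-15 or let-363. GC content in these windows ran from 34.33% at daf-15 to 53.23% at the hlh-30 promoter, beside a median of 43.78% over all conservative summits. These matches describe the windows and say nothing of which factor binds there.

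Other genes of the pathway were also examined. Of 58 listed symbols for the insulin branch, the TOR branch, AMPK and effectors of L1 arrest, 56 matched a gene, and 7 of these (12.5%) were bound in the conservative list, beside 10% of all genes. In the ranked list without a threshold 20 of the 56 (35.7%) were, beside 24.5%. These differences were not tested. By branch, 2 of 19 insulin genes, 4 of 20 TOR genes, none of 8 AMPK genes and 1 of 9 arrest effectors were bound. The bound insulin genes were ftt-2 and par-5, which encode 14-3-3 proteins. Their summits were 653 and 144 bp upstream, with signals of 517.3 (rank 241) and 308.8 (rank 574). Among TOR genes, atx-2, the ataxin-2 homolog, had a signal of 463.7. lgg-1, which encodes an ATG8-type autophagy protein, had 263.8. lmtr-3, a subunit gene of the Ragulator complex, had 253.4, and rict-1, which encodes Rictor of TOR complex 2, had 216.9. sir-2.1, a sirtuin gene, had 134.9 and was the only bound gene of the 7 missing from the list of replicate 2. Summits were shared with another gene's promoter at par-5 (M117.3), atx-2 (ecps-1), lmtr-3 (atp-5) and rict-1 (gfm-1). The receptor's lipid kinase gene age-1, the AMPK subunit genes aak-1 and aak-2, and the S6 kinase gene rsks-1 had no bound promoter. From 1000 bp upstream to the gene end, 11 of the 56 (19.6%) held a conservative summit, beside 11.3% of all genes, which adds pdk-1, aak-2, aakg-1 and skn-1.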

How the data were processed

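ISW-1::EGFP ChIP-seq peaks of 2 biological replicates were analysed from 8 peak lists on ce11 (WBcel235). Per the labels, each replicate has a list ranked by IDR and a thresholded one, and the series has 2 of each. The sources used here do not give the aligner or the peak caller and its version. The signal (column 7) is the authors' own value per peak, and the deposited −log10 column 12 of the ranked lists holds the global IDR. A further 16 columns with values per sample were not used. The ranked list behind the conservative one was identified by shared intervals. On the files, no thresholded peak had a global IDR above 0.00997.

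Summits were assigned in Python 3.11.15 to Ensembl release 115 genes, sequences were read from the RefSeq genome of the same build, and figures were drawn with matplotlib 3.10.9. Positions are 1-based. Peaks were matched between lists by an overlap of at least 1 bp. On simulated data, 200 of 200 planted genes were called and 0 of 200 genes with summits outside the window. With 1 condition there was no comparison between groups and no test. All 10 genes were named, and of the 56 other pathway genes the bound ones up to 12 by signal, with a few unbound ones as examples, chosen after their values were seen. The genes and lists were chosen with earlier results of these data known.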

Additional observations from a re-analysis of the deposited data

How the results depend on the processing

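The count of 4 bound genes among the 10 stayed between 3 and 6 in the other thresholded list, in either replicate's list alone, under overlap in place of the summit, with narrower or wider windows, at any transcript start and with the nearest start alone. Among conservative peaks above the median signal it was 1 (rheb-1), and without a threshold it was 7. For all protein-coding genes these settings gave 1201 and 4885 in place of 1997. Over all genes the narrower window gave 1610, the nearest start alone 1393, any transcript start 2094 and overlap 2100 or 1999. akt-2 was lost with a window from 500 bp upstream to 200 bp downstream. let-363 was gained with one from 1500 bp upstream, through the summit at mrpl-47. Counted to the gene end, 6 became 1 above the median signal and ranged from 4 to 8 otherwise. Over that region 11.3% of all protein-coding genes held a conservative summit. Their share in the other settings was not counted, so these changes have no background. For the wider pathway, 7 became 11 with the window from 1500 bp upstream, where the count over all protein-coding genes became 2284, and 20 without a threshold. The background of genes of at least 15 kb was added after seeing the data. Depth is unknown, so a gene without a peak was not detected, which does not show that ISW-1 was absent. Peaks shared between neighbouring starts cannot be given to 1 gene.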
